A study of Homo sapiens with 6 samples.

Results

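Glucuronidation was examined here through 7 genes of the count table, the UDP-glucuronosyltransferase genes UGT2B7, UGT2B10, UGT2B11, UGT2B15, UGT2B17 and UGT2B28 and the UDP-glucose dehydrogenase gene UGDH. They were chosen by symbol with earlier results of these libraries known, and all 7 of them had a row among the 31413 genes. RNA was taken from C42, a prostate cancer cell line of human origin usually written C4-2 and derived from LNCaP, grown in RPMI medium with serum and antibiotics. Of the 6 libraries, 3 carried a control shRNA (shCTR, numbered 1, 2 and 4) and 3 an shRNA against NSD2 (shNSD2, numbered 1, 2 and 3). NSD2, also named WHSC1, encodes a histone H3 lysine 36 methyltransferase. Both groups carried an shRNA. The number of hairpins against NSD2 is not stated, and an effect of a hairpin outside its target cannot be told apart from that of lower NSD2. The labels do not say whether libraries came from separate cultures, so the error behind each p-value is that among the libraries at hand and could be a technical one.

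Glucuronidation joins glucuronic acid to a steroid, bile acid, fatty acid or drug and makes it soluble for export. UGT2B15 and UGT2B17 are the main androgen-conjugating enzymes of the prostate, acting on dihydrotestosterone and its reduced products, and androgen is known to lower their transcripts in prostate cancer cells. UGDH makes UDP-glucuronic acid, the sugar donor of every UGT2B enzyme. The UGT2B genes arose by duplication and lie together on chromosome 4, so their transcripts resemble each other closely.

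That resemblance bears on how reads are assigned, so a stretch of coding sequence is shown first. It runs from base 1321 to base 1410 of the UGT2B11 coding sequence in GENCODE 29. Among windows of 90 bases without gaps, taken every 30 bases, it held the most differences between UGT2B11 and UGT2B28. Capitals in the other lines mark bases that differ from UGT2B11.
UGT2B11: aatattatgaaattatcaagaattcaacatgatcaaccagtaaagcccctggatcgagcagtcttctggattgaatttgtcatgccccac
UGT2B28: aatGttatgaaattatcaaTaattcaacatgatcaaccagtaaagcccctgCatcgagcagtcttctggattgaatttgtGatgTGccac
UGT2B10: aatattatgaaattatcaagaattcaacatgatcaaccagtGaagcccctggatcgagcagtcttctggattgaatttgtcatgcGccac
UGT2B15: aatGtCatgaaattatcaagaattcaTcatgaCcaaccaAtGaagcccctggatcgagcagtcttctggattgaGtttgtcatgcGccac
UGT2B17: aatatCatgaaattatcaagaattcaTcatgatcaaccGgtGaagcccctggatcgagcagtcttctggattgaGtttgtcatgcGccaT
In this stretch UGT2B28 differed from UGT2B11 at 6 bases, UGT2B10 at 2, UGT2B15 at 8 and UGT2B17 at 7.

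Over the whole coding sequence, UGT2B11 and UGT2B28 were 97.0% identical, with 47 differing bases among 1587 aligned. UGT2B15 and UGT2B17 were 96.5% identical, with 55 differing bases among 1590. Between the members of those pairs identity was 84.6% to 85.3%. UGT2B10 stood closer to UGT2B11 (95.3%) and UGT2B28 (94.3%) than to UGT2B15 (86.0%), and UGT2B7 was 91.8% identical to UGT2B11.

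**Figure D1:**
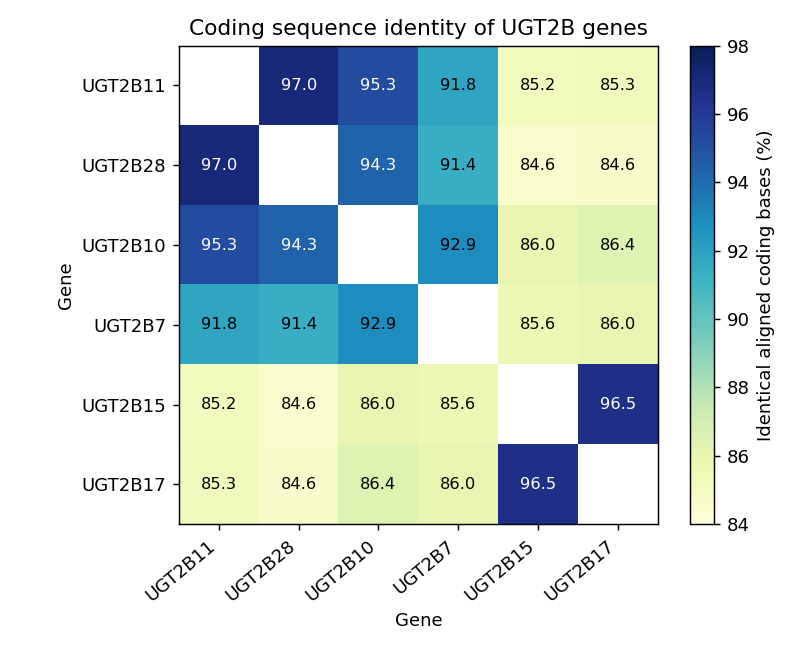
Percentage of identical bases among aligned coding bases for each pair of 6 UGT2B genes, from GENCODE 29 transcripts, with genes on both axes and colour and printed value giving the identity. UGT2B11 with UGT2B28 (97.0%) and UGT2B15 with UGT2B17 (96.5%) are the closest pairs.

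Short reads can still tell most of these transcripts apart. Of all 50-base stretches of UGT2B11 transcripts, 16.1% also occurred in UGT2B28, and of those of UGT2B28 20.1% occurred in UGT2B11. At 100 bases these shares were 0.759% and 0.927%. UGT2B15 and UGT2B17 shared 27.5% of their 50-base stretches and 12.7% of their 100-base stretches. Counted against every transcript of GENCODE 29 on either strand, 57.8% of the 50-base stretches of UGT2B11 and 84.5% of its 100-base stretches were found in no other gene. For UGT2B28 these values were 65.2% and 94.6%, for UGT2B15 72.2% and 87.3%, for UGT2B17 72.2% and 87.3%, for UGT2B10 69.1% and 93.7%, and for UGT2B7 94.6% and 100%. No source used here gives the read length or the treatment of reads that match several genes. Sums over rows are therefore given below beside the single genes, since a sum does not depend on how reads were split within it.

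Among the 7 genes, UGT2B11 and UGT2B28 were far higher with the NSD2 shRNA, UGT2B15 and UGT2B17 lay moderately higher, UGT2B10 and UGT2B7 were barely detected, and UGDH differed little. Values are CPM, counts scaled to a common library total with TMM factors. Total counts were 19412896 to 20665494 per library, and 3 counts, the level taken as the detection floor, equalled 0.145 to 0.156 CPM. NSD2 itself was at 200 to 223 CPM in the controls and 85.3 to 89.7 CPM in the knockdown, 40.7% of the control mean. All 10 luminal prostate markers, among them KLK3, were detected, and they summed to 11692 to 12932 CPM in the controls and 10968 to 11500 CPM in the knockdown. Hepatocytes express UGT2B genes strongly, and their markers were read for that reason. The 8 of 10 hepatocyte markers with a row summed to 7.47 to 11.3 and 5.20 to 7.18 CPM in control and knockdown. TTR held most of that sum, with 5.59 ± 2.14 and 3.24 ± 0.955 CPM (SD, n = 3 each; edgeR adjusted p = 0.0584). ALB stood at 0.266 ± 0.0644 and 0.0503 ± 0.00156 CPM and APOA1 at 0.384 ± 0.122 and 0.567 ± 0.160 CPM. Leukocyte markers summed to 2.46 to 3.33 and 1.90 to 2.65 CPM, and fibroblast and endothelial markers to 26.5 to 29.5 and 36.3 to 40.4 CPM. Of these last 10 markers 7 had a row, and COL1A1 held most of the sum, with 19.7 ± 1.23 and 28.2 ± 2.15 CPM. VWF and PDGFRB also lay higher in the knockdown. COL3A1 lay lower, with 1.20 ± 0.214 and 0.252 ± 0.0928 CPM, and the others with a row were near the floor. The part of these marker levels in the UGT2B values was not tested. The library shCTR 4 stood apart from the other controls, 48.7% of the way toward the knockdown libraries across 11218 genes of mean 5 CPM or more. For UGT2B11 the same measure was -10.6% and for UGT2B28 3.74%, so shCTR 4 resembled the other controls in both. It was -10.7% for UGT2B17, -76.8% for UGT2B15 and -133% for UGDH. Negative values mean that shCTR 4 lay on the side away from the knockdown libraries, and it did so most for UGT2B15 and UGDH.

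UGT2B11 (ENSG00000213759) lies on the minus strand of chromosome 4, from 69199951 to 69214731 on GRCh38, and encodes an enzyme whose substrates are less well known than those of its relatives. The control libraries shCTR 1, 2 and 4 held 4.99, 3.71 and 3.75 CPM, and the knockdown libraries shNSD2 1, 2 and 3 held 11.2, 18.7 and 17.5 CPM. The lowest knockdown library, shNSD2 1, was still above every control. Group means were 4.15 ± 0.725 and 15.8 ± 4.02 CPM (SD, n = 3 each), a 3.80-fold difference and a log2 fold change of 1.93 (SE 0.205). The raw counts were 102, 77 and 72 against 220, 364 and 361.

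UGT2B28 (ENSG00000135226), described as an enzyme acting on steroids, lies on the plus strand from 69280499 to 69295050. Its level was 4.84, 3.90 and 4.54 CPM in shCTR 1, 2 and 4 and 8.92, 17.1 and 16.3 CPM in shNSD2 1, 2 and 3. As for UGT2B11, shNSD2 1 was the lowest of the knockdown libraries and no values overlapped between groups. The means were 4.43 ± 0.478 and 14.1 ± 4.52 CPM (SD, n = 3 each), a 3.19-fold difference with a log2 fold change of 1.67 (SE 0.230). Summed, UGT2B11 and UGT2B28 went from 8.58 ± 1.13 to 29.9 ± 8.53 CPM, 3.49-fold.

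UGT2B15 (ENSG00000196620, minus strand, 68646630 to 68670628), which conjugates dihydrotestosterone and androstanediol, lay at 2.30, 1.78 and 1.62 CPM in shCTR 1, 2 and 4. Knockdown libraries 1, 2 and 3 held 2.55, 2.72 and 2.86 CPM. The groups did not overlap, but shCTR 1 and shNSD2 1 were close. The means were 1.90 ± 0.356 and 2.71 ± 0.156 CPM (SD, n = 3 each), with a log2 fold change of 0.51 (SE 0.201).

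UGT2B17 (ENSG00000197888, minus strand, 68537184 to 68568527) conjugates testosterone as well as dihydrotestosterone. Its control values were 2.15, 1.35 and 1.62 CPM and its knockdown values 2.65, 3.70 and 2.18 CPM. Here shNSD2 3 lay just above shCTR 1, and shNSD2 2 was the highest library. The means were 1.71 ± 0.408 and 2.84 ± 0.776 CPM (SD, n = 3 each), which gave 0.73 as log2 fold change (SE 0.257). Summed, UGT2B15 and UGT2B17 held 3.60 ± 0.733 and 5.55 ± 0.753 CPM in control and knockdown, 1.54-fold higher in the latter. Either gene had 28 to 72 counts per library. From the summed counts alone, the ratio of shNSD2 to shCTR was 1.42 for UGT2B15, with an exact 95% interval of 1.11 to 1.83. For UGT2B17 it was 1.66 (1.29 to 2.14). These intervals cover counting error only, leave out the spread between libraries and are not a test. In the fit over libraries, neither gene had an adjusted p under 0.05.

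UGT2B10 (ENSG00000109181, plus strand, 68815993 to 68831196), known for glucuronidation of nicotine, was near the floor. It had 2, 0 and 0 counts in shCTR 1, 2 and 4 and 2, 6 and 5 counts in shNSD2 1, 2 and 3. The summed counts were 2 and 13, a ratio of 6.57 with an exact 95% interval of 1.49 to 60.0, which covers counting error only and not the spread between libraries. UGT2B7 (ENSG00000171234, plus strand, 69051363 to 69112987), an enzyme of broad range in liver and kidney, had 0 to 2 counts in every library. Both were below the low-count filter, and no fold is given for UGT2B7.

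UGDH (ENSG00000109814) lies apart from the cluster, on the minus strand of chromosome 4 from 39498755 to 39528311. It had 53.5, 57.3 and 60.1 CPM in shCTR 1, 2 and 4 and 53.3, 52.7 and 49.99 CPM in shNSD2 1, 2 and 3. Every knockdown library was below the lowest control, yet shCTR 1 and shNSD2 1 were nearly equal. The means were 57.0 ± 3.31 and 52.0 ± 1.79 CPM (SD, n = 3 each), which gave -0.13 as log2 fold change (SE 0.0825). The antisense gene UGDH-AS1 overlaps it and was counted at 2.67 ± 0.620 and 2.35 ± 0.585 CPM. Of the 50-base stretches of UGDH, 5.58% also occurred in UGDH-AS1. Without a stated strand setting, reads of these shared stretches cannot be told apart.

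**Figure D2:**
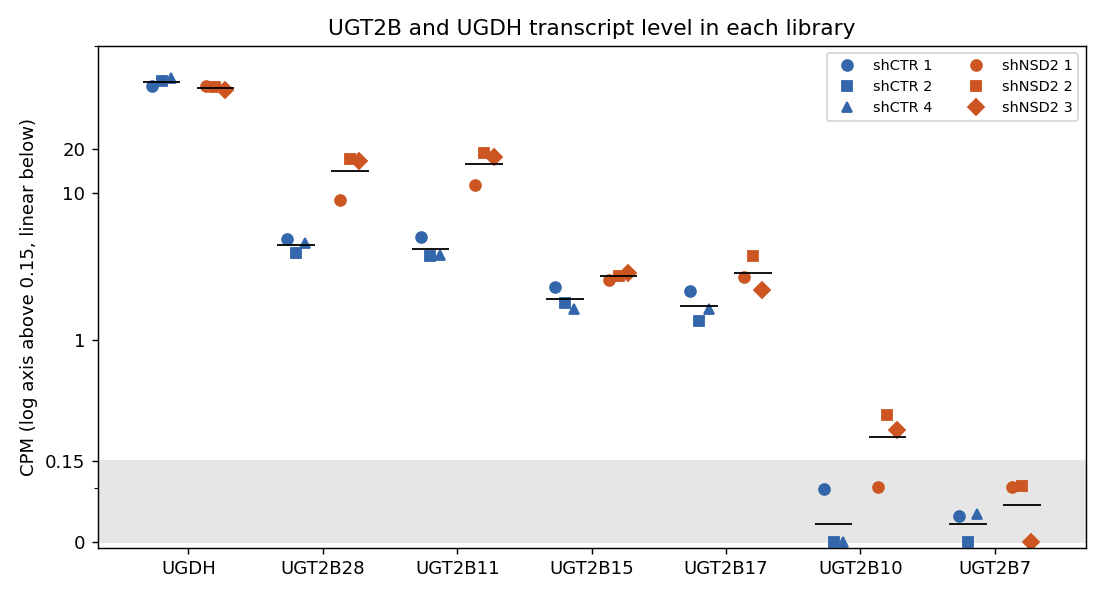
Level of each gene in CPM on an axis that is logarithmic above 0.15 and linear below, one symbol per library, blue for shCTR and orange for shNSD2, with black lines at the group means and grey shading below 0.15 CPM. UGT2B11 and UGT2B28 separate widely between groups, while UGDH stays between 49.99 and 60.1 CPM in all 6 libraries.

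These values come from the contrast that led to the choice of the genes and are a description. In the fit over all 17160 genes tested, 5 of the 7 were tested and 2, UGT2B11 and UGT2B28, had an adjusted p under 0.05, against 30.7% of all genes. CPM did not overlap between groups for 4 of the 5 in the higher direction and 1 in the lower, against 24% and 22.8% of all genes tested. By log2 fold change UGT2B11 ranked 53, UGT2B28 88, UGT2B17 934, UGT2B15 2009 and UGDH 10790 among the 17160, counted from the highest. An increase of at least 1 on the log2 scale was seen in 2.58% of genes tested. UGT2B17 passed the threshold as well without shCTR 1 or without shCTR 4, where 8.51% and 23.9% of all genes were called higher. In each of the other fits that left out a library 2 members passed, beside 6.33% to 8.28% of all genes called higher.

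The 6 UGT2B genes together held 295, 223 and 222 counts in the control libraries and 501, 830 and 807 in the knockdown libraries. In scaled units this was 14.4, 10.7 and 11.6 CPM against 25.5, 42.6 and 39.1 CPM. The control mean was 12.2 ± 1.93 and the knockdown mean 35.8 ± 9.02 CPM (SD, n = 3 each), 2.92-fold higher, with shNSD2 1 lowest among the knockdown libraries and above every control.

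The same counts can be written as shares of the family. UGT2B11 took 33.8% ± 1.22 of them in shCTR and 44.2% ± 0.491 in shNSD2 (SD, n = 3 each). UGT2B28 took 36.4% ± 2.82 and 38.9% ± 3.57, with overlap between groups. The share of UGT2B15 was 15.5% ± 1.37 in shCTR and 7.89% ± 1.87 in shNSD2, and that of UGT2B17 13.8% ± 1.19 and 8.21% ± 2.44. UGT2B15 and UGT2B17 thus took smaller shares of the family in every knockdown library than in any control, although their own levels were not lower. These smaller shares follow by arithmetic from the larger fold changes of UGT2B11 and UGT2B28 given above and are no further result.

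**Figure D3:**
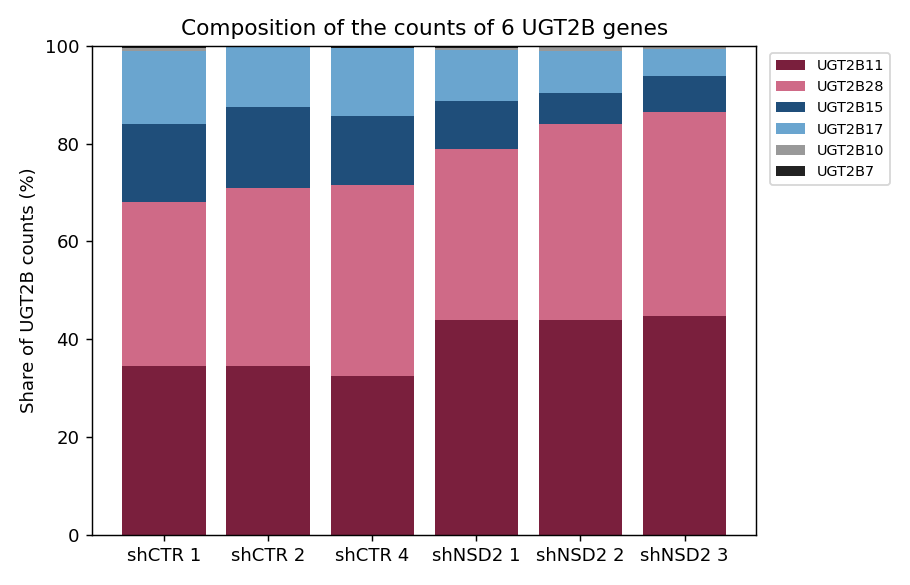
Share of the summed counts of 6 UGT2B genes taken by each gene, in percent, as one stacked bar per library. UGT2B11 takes 32.4% to 34.6% in the shCTR libraries and 43.9% to 44.7% in the shNSD2 libraries, while the shares of UGT2B15 and UGT2B17 are smaller in shNSD2.

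Ratios within a library need no scaling, but they restate the same counts. The count of UGT2B11 over that of UGT2B15 was 2.17, 2.08 and 2.32 in shCTR 1, 2 and 4 and 4.40, 6.87 and 6.12 in shNSD2 1, 2 and 3. UGT2B11 over UGT2B28 was 1.03, 0.951 and 0.828 in the controls and 1.26, 1.09 and 1.07 in the knockdown libraries. UGT2B17 over UGT2B15 ran from 0.757 to 1 in shCTR and from 0.763 to 1.36 in shNSD2, so the groups overlapped. Ratios within the 2 pairs of near-identical genes thus moved less than the ratio of UGT2B11 to UGT2B15. The part of shared reads in this was not tested.

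To compare levels between genes, CPM was divided by the length of merged exons in kilobases. Whole lengths were used, although the 50-base stretches found in no other gene were 57.8% for UGT2B11, 65.2% for UGT2B28 and 94.2% for UGDH. How far the loss of shared reads would alter the order was not tested. In shCTR the order was UGDH (14.1 ± 0.820 CPM per kilobase), UGT2B28 (2.41 ± 0.261), UGT2B11 (1.77 ± 0.310), UGT2B15 (0.914 ± 0.171), UGT2B17 (0.821 ± 0.197), UGT2B10 (0.0169 ± 0.0292) and UGT2B7 (0.0149 ± 0.0129), each as SD with n = 3. The ranges of UGT2B28 and UGT2B11 touched, and UGT2B15 and UGT2B17 could not be separated, nor could UGT2B10 and UGT2B7. In shNSD2 the level per length of UGT2B28 was 7.70 ± 2.46 and that of UGT2B11 6.75 ± 1.72, below UGDH at 12.9 ± 0.442. UGT2B17 stood at 1.37 ± 0.373 and UGT2B15 at 1.31 ± 0.0750 CPM per kilobase, again not separated.

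The promoters of 5 of the 7 genes were found in the RefSeq table on GRCh38.p14, each covering 250 bases before and 50 after the start. Those of UGT2B17 and UGT2B28 were not in it. The promoter of UGT2B11 is shown as that of the gene with the largest difference. Those of UGT2B10, its nearest relative in the table, and of UGT2B15, the androgen-conjugating enzyme, are shown beside it. They lie on chromosome 4, at chr4:69214699-69214998 (minus strand), chr4:68815744-68816043 (plus strand) and chr4:68670603-68670902 (minus strand). Capitals mark exact matches on either strand to 4 motifs, TATAAA, the FOXA core TGTTTAC, the GC box GGGCGG and the nuclear receptor core AGGTCA. Near matches, such as the stretch tatataag closer to the start of UGT2B11, were not searched for or marked.
UGT2B11: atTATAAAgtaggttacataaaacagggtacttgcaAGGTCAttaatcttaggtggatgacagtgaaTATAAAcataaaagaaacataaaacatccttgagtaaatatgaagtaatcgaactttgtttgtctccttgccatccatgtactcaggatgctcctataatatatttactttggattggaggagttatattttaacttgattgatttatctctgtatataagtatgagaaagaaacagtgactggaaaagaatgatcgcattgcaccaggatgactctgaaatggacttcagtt
UGT2B10: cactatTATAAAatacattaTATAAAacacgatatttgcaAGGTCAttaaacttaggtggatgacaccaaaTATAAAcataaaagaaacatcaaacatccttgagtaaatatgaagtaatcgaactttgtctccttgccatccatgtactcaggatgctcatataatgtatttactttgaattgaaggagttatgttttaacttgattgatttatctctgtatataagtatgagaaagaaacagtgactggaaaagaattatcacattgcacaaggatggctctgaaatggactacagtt
UGT2B15: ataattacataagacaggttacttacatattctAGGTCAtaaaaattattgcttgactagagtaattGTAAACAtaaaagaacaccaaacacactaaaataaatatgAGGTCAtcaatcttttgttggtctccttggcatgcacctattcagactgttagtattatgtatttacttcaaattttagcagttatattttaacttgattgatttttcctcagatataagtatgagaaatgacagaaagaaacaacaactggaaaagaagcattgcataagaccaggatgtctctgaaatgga
UGT2B11 and UGT2B10 were 92.6% identical over aligned promoter bases, and UGT2B11 and UGT2B15 80.1%. UGT2B11 held TATAAA 248 and 183 bases before the start and AGGTCA 214 bases before it. UGT2B15 held AGGTCA at 217 and 143 bases before the start and GTAAACA, the reverse of the FOXA core, at 183. Of 35116 promoters of this length, 11.5% held TATAAA, 13.8% AGGTCA and 3.42% the FOXA core. Single matches to TATAAA or AGGTCA are thus common, and those to the FOXA core less so. GGGCGG, present in 44.95% of promoters, was not in these windows. The GC content was 33.0% for UGT2B11, 31.0% for UGT2B10 and 30.3% for UGT2B15, against 66.7% for UGDH, which held GGGCGG at 2 places, and a median of 58.7%.

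The 6 UGT2B members span 757.87 kilobases, from the end of UGT2B17 at 68537184 to that of UGT2B28 at 69295050. UGT2B4 (69480165 to 69526014), a UGT2B gene that is not a member, lies beyond UGT2B28. The pseudogenes UGT2B25P and UGT2B24P lie there too. Within the span, UGT2B17 and UGT2B15 lie at one side and UGT2B11 and UGT2B28 at the other, with UGT2B10 and UGT2B7 between. Within 500 kilobases on either side the table held 13 other genes, of which 3 were tested and 0 passed the threshold in edgeR, DESeq2 or limma-voom, 2 of them having an unadjusted edgeR p under 0.05. These were UBA6-AS1 (log2 fold change 0.41, edgeR adjusted p = 0.0905) and TMPRSS11E, a serine protease gene beside UGT2B17, with 1.33 ± 0.276 and 2.08 ± 0.654 CPM (SD, n = 3 each; edgeR adjusted p = 0.105). YTHDC1, a reader of methylated adenosine in RNA, lay at 38.5 ± 3.99 and 37.7 ± 1.29 CPM (edgeR adjusted p = 0.817). The antisense gene AC111000.4 overlaps UGT2B11 and had 2 counts over the control libraries and 18 over the knockdown libraries. It holds 14.1% of the 50-base stretches of UGT2B11. Without a stated strand setting, reads of these shared stretches cannot be told apart. The pseudogene UGT2B24P had 3 and 17 counts over the same libraries, 11 of the 17 in shNSD2 3, and UGT2B25P, which holds 19.9% of the 50-base stretches of UGT2B11, had 11 and 13.

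**Figure D4:**
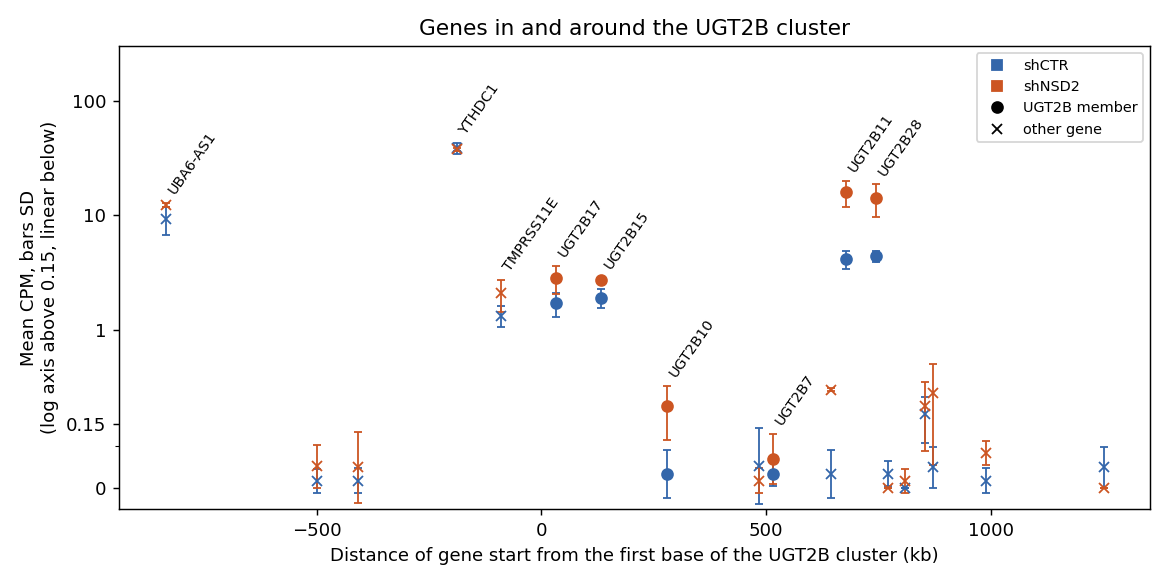
Mean CPM of genes in and around the UGT2B cluster against the distance of each gene's start from the first base of the cluster in kilobases. Circles mark the 6 UGT2B members and crosses other genes, UGT2B4 and UGT2B pseudogenes included. Bars are SD over 3 libraries, blue is shCTR and orange shNSD2. The CPM axis is logarithmic above 0.15 CPM and linear below. UGT2B11 and UGT2B28, at the far side of the members, show the widest separation, and YTHDC1 outside the cluster is alike in both groups.

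Across the 6 libraries, the gene whose pattern lay nearest to UGT2B11 among 11218 genes of mean 5 CPM or more was UGT2B28, with a root mean square difference of centred log2 CPM of 0.185. Among the next nearest were the small heat shock protein gene HSPB8 (0.388), the monoacylglycerol lipase gene MGLL (0.395) and the zinc finger gene ZSCAN18 (0.429). UGT2B17 and UGT2B15 lay farther away, at 0.655 and 0.717. MGLL went from 28.8 ± 3.32 to 102 ± 10.5 CPM (SD, n = 3 each). Nearest to UGDH were CNOT4 (0.0149), RSPRY1 (0.0189), KDM1A (0.0194), NGRN (0.0201) and MEF2A (0.0217).

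Rows of other UDP-glycosyltransferase genes mostly held few counts, which may leave out reads that match several genes. Of 16 genes with a UGT symbol, 10 were not members, and of these only UGT8, which makes galactosylceramide of myelin lipids, reached 1 CPM. UGT8 fell 1.88-fold, from 22.9 ± 0.272 to 12.2 ± 0.549 CPM (SD, n = 3 each; edgeR adjusted p = 4.30e-04). The other 9, among them UGT1A1, UGT1A3, UGT1A6 and UGT2B4, had at most 11 counts in a library and were not tested.

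In the lists that follow, background shares were 15.5% of all genes tested for higher and 15.2% for lower, and the median log2 fold change of all genes tested was 0.01. The shares of all genes called also moved when a library was left out. Without shCTR 4 they were 23.9% higher and 22.6% lower, and without any other library 6.33% to 8.51% higher and 7.49% to 9.89% lower. Counts of list members without a library are to be read beside those shares. Among genes listed for UDP-glucuronic acid supply, transport and use, 3 of 16 tested rose and 7 fell, with a list median of -0.31. The list was drawn widely and also holds genes not specific to UDP-glucuronic acid, such as PGM3, SLC35B1 and UGGT1, the last among the falls. SLC35D1, which carries UDP-glucuronic acid into the endoplasmic reticulum where UGT2B enzymes work, fell 3.65-fold from 1.05 ± 0.280 to 0.285 ± 0.0779 CPM (SD, n = 3 each; edgeR adjusted p = 0.00520), close to the floor in shNSD2. The UDP-sugar transporter gene SLC35B4 fell from 103 ± 17.4 to 57.5 ± 4.34 CPM (edgeR adjusted p = 0.00175). NUDT14, an enzyme that splits UDP-glucose, rose from 13.3 ± 0.342 to 20.3 ± 0.920 CPM, and B3GAT3, the glucuronosyltransferase of the proteoglycan linker, from 51.1 ± 6.46 to 72.4 ± 2.36 CPM (edgeR adjusted p = 0.00212 and 0.00554). Chosen after the values were seen, UGP2, which makes the UDP-glucose used by UGDH, had 33.6 ± 4.53 and 40.8 ± 3.02 CPM (edgeR adjusted p = 0.0761). GUSB, the lysosomal enzyme that removes glucuronic acid again, fell from 120 ± 12.4 to 91.5 ± 4.41 CPM (edgeR adjusted p = 0.0143) and was also chosen after its values were seen. That call was lost without shNSD2 1 or shNSD2 2.

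Of 11 tested genes of androgen synthesis and activation, 2 rose and 3 fell, with a median of -0.17, and 7 of 18 listed were not tested. STS, the steroid sulphatase, fell from 31.1 ± 2.31 to 20.6 ± 2.28 CPM (SD, n = 3 each; edgeR adjusted p = 0.00391), and HSD17B12 fell from 31.8 ± 2.80 to 24.7 ± 1.36 CPM (edgeR adjusted p = 0.0187). CYB5A, the cytochrome partner of the CYP17A1 lyase reaction, rose from 188 ± 17.0 to 241 ± 7.52 CPM, and HSD17B7 from 16.5 ± 0.733 to 21.0 ± 1.39 CPM (edgeR adjusted p = 0.0187 and 0.0232). The third fall, named after its values were seen, was CYP11A1, the side-chain cleavage enzyme that starts steroid synthesis, by 1.58 on the log2 scale, with 16.4, 13.1 and 3.02 CPM in shCTR 1, 2 and 4 and 3.20 to 4.44 CPM in the knockdown. Of the 6 fits that left out a library, it was called in the 1 without shCTR 4. HSD17B6, an oxidative enzyme that can regenerate dihydrotestosterone, had 3.95 ± 0.758 and 4.81 ± 0.944 CPM, with overlapping groups (edgeR adjusted p = 0.303). SRD5A1, the steroid reductase that makes dihydrotestosterone, was chosen after its values were seen, with 40.7 ± 1.54 and 40.2 ± 2.09 CPM (edgeR adjusted p = 0.878). Leaving out a library gave 0 to 2 higher and 1 to 5 lower members, and the call of HSD17B7 was lost in 5 of 6 such fits, those of CYB5A and HSD17B12 in 4 each. The 2 higher became 0 without shCTR 2, shNSD2 1, shNSD2 2 or shNSD2 3 and 1 without shCTR 1. The 3 lower became 5 without shCTR 4 and 1 without shCTR 1, shNSD2 1, shNSD2 2 or shNSD2 3.

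Of 14 tested genes listed for androgen inactivation by routes other than glucuronidation, 5 rose and 1 fell, with a median of 0.17. The list was drawn widely, and the direction in which its steroid dehydrogenases act in these cells was not tested. The count is therefore no measure of inactivation. HSD17B8, an oxidative hydroxysteroid dehydrogenase, rose from 18.5 ± 3.16 to 31.4 ± 1.12 CPM, and its relative HSD17B10 from 104 ± 18.2 to 143 ± 5.44 CPM (SD, n = 3 each; edgeR adjusted p = 0.00234 and 0.0170). HSD17B14 rose from 0.334 ± 0.119 to 1.19 ± 0.309 CPM, a low level (edgeR adjusted p = 0.00521). The steroid sulphotransferase gene SULT2B1 rose from 5.12 ± 1.73 to 9.41 ± 0.310 CPM (edgeR adjusted p = 0.0103), with 6.99 CPM in shCTR 4, the control nearest the knockdown libraries. The other rise was in AKR1D1 (0.85 on the log2 scale) and the 1 fall in HSD17B11 (-0.58), both named after their values were seen. Without shCTR 2, shNSD2 1 or shNSD2 3, the higher members were 3, and of the 6 fits that left out a library AKR1D1 was called in the 1 without shCTR 4. The call of HSD17B10 was lost without shCTR 2, shNSD2 1 or shNSD2 3. The lower members were 3 when shCTR 4 was left out, and 0 by edgeR when any other library was.

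Glucuronides leave the cell through transporters of the ABCC family. Of 7 tested exporters and steroid carriers, 0 rose and 1 fell by edgeR, with a median of -0.30. ABCC5 fell from 192 ± 31.2 to 151 ± 2.34 CPM (SD, n = 3 each; edgeR adjusted p = 0.0423), a call lost without shCTR 1 or any of the knockdown libraries. ABCC4 was the most abundant, with 784 ± 258 and 557 ± 51.9 CPM, and was chosen after its values were seen (edgeR adjusted p = 0.0943). ABCC2 and ABCC3, the glucuronide pumps of liver, were below the filter. With shCTR 4 left out the lower members were 5, in a fit that called 22.6% of all genes lower.

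Of 17 tested transcription factors described as regulators of UGT genes, 1 rose and 4 fell, with a median of 0.05. FOXA1, a pioneer factor of prostate epithelium, had 499 ± 29.99 and 552 ± 4.19 CPM (SD, n = 3 each; edgeR adjusted p = 0.268). The nuclear receptor genes PPARG (5.19 ± 1.08 to 2.12 ± 0.476 CPM) and ESR2 (1.48 ± 0.444 to 0.351 ± 0.172 CPM) fell, as did the intestinal factor gene CDX2 (1.54 ± 0.279 to 0.435 ± 0.211 CPM), with edgeR adjusted p of 0.00334, 0.00486 and 0.00506. NR1H2, which encodes the oxysterol receptor LXR-beta, rose from 54.1 ± 8.81 to 80.3 ± 6.56 CPM (edgeR adjusted p = 0.00723). HNF4A, an activator of UGT2B genes in liver, had at most 4 counts in a library. With shCTR 4 left out, 2 regulators were higher.

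Because androgen lowers UGT2B15 and UGT2B17, genes that androgen raises are given beside them. Of 19 tested, 2 rose and 5 fell, with a median of -0.23. The cation channel gene TRPM8 fell from 262 ± 104 to 76.5 ± 3.27 CPM, with 150 CPM in shCTR 4, NDRG1 from 339 ± 48.9 to 223 ± 15.3 CPM and the ubiquitin ligase gene HERC3 from 215 ± 39.1 to 145 ± 16.4 CPM (SD, n = 3 each; edgeR adjusted p = 0.00136, 0.00559 and 0.0131). CAMKK2, a kinase of AMPK, rose from 137 ± 34.7 to 217 ± 29.2 CPM (edgeR adjusted p = 0.0142). Named after their values were seen, KLK2 and ELL2 fell and HPGD rose (edgeR adjusted p = 0.0244, 0.0144 and 0.0148). KLK2 lost its call without shCTR 2 or any knockdown library, ELL2 without shCTR 2, and HPGD without shCTR 2 or shNSD2 2. KLK3, which encodes prostate-specific antigen and was chosen after its values were seen, had 6628 ± 358 and 5831 ± 220 CPM (edgeR adjusted p = 0.313). The members lower numbered 10 without shCTR 4, where 22.6% of all genes were called lower, 2 without shCTR 2 (8.28%), and 3 without shNSD2 1 (9.07%) or shNSD2 3 (7.49%). The members higher numbered 1 without shCTR 2, shNSD2 1 or shNSD2 2. The call of HERC3 was lost without shCTR 2, shNSD2 1 or shNSD2 3, and that of CAMKK2 without shNSD2 1.

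**Figure D5:**
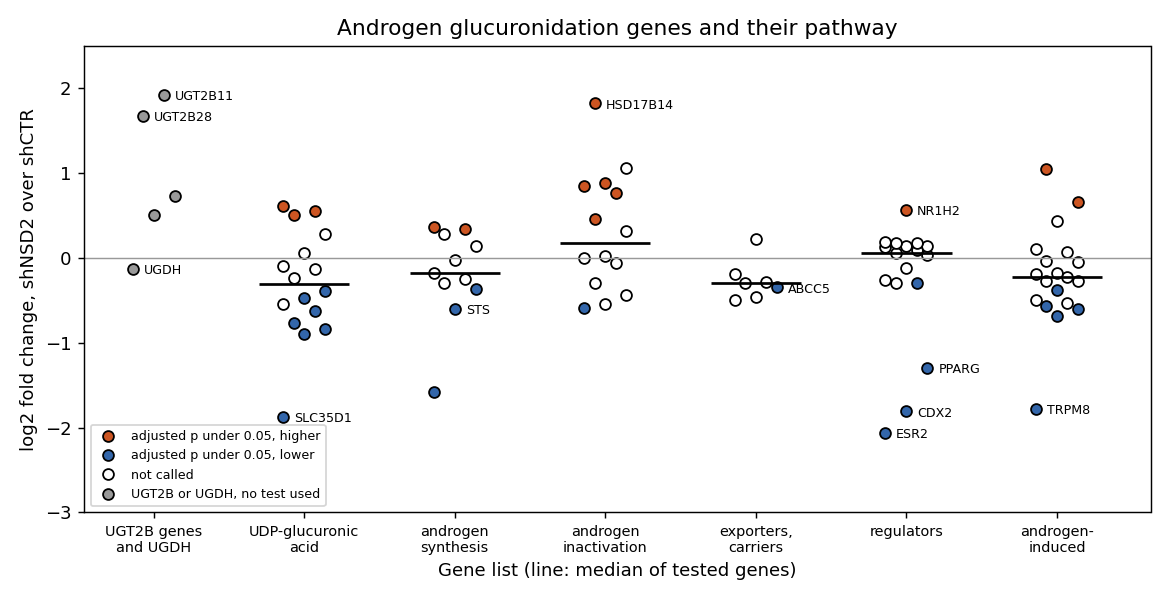
log2 fold change of shNSD2 over shCTR for each tested gene of the pathway lists, by list, with a line at the list median. Orange and blue mark genes with an edgeR adjusted p under 0.05, higher or lower, white those not called, and grey the UGT2B genes and UGDH, for which no test is used. UGT2B11 (1.93) and UGT2B28 (1.67) lie with HSD17B14 (1.82) above all other plotted genes.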

How the data were processed

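RNA of 3 shCTR and 3 shNSD2 libraries was measured by RNA-seq, and groups were taken from the sample titles. The values are raw read counts by gene as the authors deposited them, judged from whole numbers with totals that differ among libraries. CASAVA 1.8.2, STAR 2.6.0a and GRCh38 were used, per the submitters' processing notes. Libraries came from a KAPA mRNA kit, per the labels' protocols. No source used here gives the counting program, strand setting or annotation.

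Counts were fitted with edgeR 4.0.16 in R 4.3.3 (filterByExpr, TMM, quasi-likelihood test, no covariate), with Benjamini-Hochberg adjustment over 17160 genes and a threshold of 0.05. The filter removed 14253 genes. SE was derived from the F statistic, and log2 CPM for pattern likeness used 0.5 added counts. The fit was tested on simulated data. Coordinates, exon lengths and transcripts came from GENCODE 29, promoters from RefSeq.

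Members and lists were chosen with earlier results of these data known. The naming rule took all members, UGT genes of at least 1 CPM, the 4 called genes of smallest p in each pathway list, FOXA1, HSD17B6, NSD2 and the 5 genes nearest in pattern to UGT2B11 and to UGDH. Some genes that it named are not reported here. The alternatives tried were DESeq2 1.42.0 size factors and its Wald test, plain library size, limma-voom (limma 3.58.1), other filters, a replicate block, summed UGT2B rows and each library left out.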

Additional observations from a re-analysis of the deposited data

How the results depend on the processing

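The log2 fold changes of the 5 tested members kept their sign in all 13 refits. They moved by less than the SD between libraries. A fit that leaves out 1 of 3 libraries could hardly exceed that limit, so nothing is read from it. Over the libraries left out, values ran from 1.79 to 2.13 for UGT2B11 and 1.52 to 1.92 for UGT2B28. The ranges were 0.50 to 0.93 for UGT2B17, 0.41 to 0.66 for UGT2B15 and -0.18 to -0.09 for UGDH. The log2 ratio of the summed UGT2B counts, 1.55, ran from 1.40 to 1.74 with a library left out and was 1.55 when the rows were summed before the fit. The number of genes called, 5263, ran from 2436 without shNSD2 3 to 8262 without shCTR 4, higher ones from 1116 to 4251 and lower ones from 1320 to 4011. It was 4694 to 6243 under the 7 settings that kept all libraries. Members called in each list ran, with a library left out, from 0 to 2 higher and 1 to 5 lower in androgen synthesis, 3 to 7 and 0 to 3 in androgen inactivation, 0 to 5 lower among exporters and carriers, 1 to 2 higher among regulators, and 1 to 3 higher and 2 to 10 lower among androgen-induced genes. Fits without a library have fewer samples. The replicate numbers 1 and 2 occur in both groups, but deviations of same-numbered libraries correlated at 0.0388 and -0.173, so the numbers were not taken as pairs. Differently numbered libraries correlated at -0.427 (shCTR 2 with shNSD2 3) to 0.470 (shCTR 2 with shNSD2 1), and a link among them was not tested. The replicate block called 3242 of all 17160 genes tested higher and 3001 lower, against 2658 and 2605 in the main fit. With the block, UGT2B17 also passed the threshold. Called members were then 1 higher in androgen synthesis, 5 lower among exporters and carriers, 2 higher among regulators and 9 lower among androgen-induced genes. DESeq2's Wald test called 3 exporters and carriers lower, beside 2377 of all 31401 genes in that test. Among genes of androgen inactivation limma-voom called 0 lower, beside 2531 of all 17160 genes. Also under the block, AKR1D1 and HSD17B7 were not called. AKR1D1 was not called by DESeq2's Wald test either, and without the low-count filter neither AKR1D1 nor ABCC5 was. CYP11A1 was not called by DESeq2 or limma-voom. Requiring 1 CPM or more in 3 libraries left SLC35D1, HSD17B14 and ESR2 untested. The cause was not tested. No result met the rules for a closer look, since groups of 3 are too small for the outlier criterion. The low counts of UGT2B7 and UGT2B10 limit what can be said of them.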
